A study of Mus musculus with 9 samples.

Results

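The genes described here encode 3 families of RNA-binding proteins that act in pre-mRNA splicing: the SR proteins (Srsf), the heterogeneous nuclear ribonucleoproteins (Hnrnp) and the proteins named for their RNA-binding motif (Rbm, Rbms and Rbmx). Members were found by gene symbol, from symbols that begin with Srsf, Sfrs, Hnrnp, Hnrp, Rbms, Rbmx or Rbm followed by a digit. Of 72 such symbols on probe sets that name a single gene, 69 were measured among 13320 genes in all: 10 SR proteins, 19 hnRNP proteins and 40 Rbm proteins. A gene counted as measured when a probe set lay above the 40th percentile of its array on at least 3 of the 9 arrays. Rbm44, Rbm46os and Rbm3os did not pass that filter. Another 7 matching symbols, among them Rbm3, Rbm4, Rbm10 and Hnrnpa3, stood only on probe sets that name several genes and were not analysed here. Of the members, 4 lay above the percentile on only some arrays: Rbm11 on 5, Rbm47 on 6, and Rbm46 and Rbmxl2 on 7 each. Rbm47 passed through the ESC-RPC arrays alone. Rbmxl2 would not have passed without the ESC-RPC arrays, nor Rbm11 without the primary arrays.

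SR proteins carry an RNA-recognition motif and a tail rich in arginine and serine. They bind exonic enhancers and recruit the spliceosome to nearby splice sites, and their activity and location are set by phosphorylation. The hnRNP proteins coat nascent transcripts and often oppose SR proteins at silencer elements. Rbm proteins are more varied. Some are parts of the spliceosome, some regulate single exons in muscle, heart or brain, and others act in the nucleolus, in RNA decay or in RNA modification. In the developing retina, as in brain, neurons switch many exons when they leave the cell cycle, through regulators such as Ptbp1, Ptbp2, Nova and Srrm4.

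The study measured mouse retinal progenitor cells (RPCs) from embryonic stem cells and from the eye on Affymetrix 3-prime arrays, with 3 arrays labelled as biological repeats in each of 3 groups. Cells of both stem cell groups (ESC-RPCs) came from the 46C ES line, itself derived by gene targeting in E14Tg2a.IV cells. That is a single line. Embryoid bodies grew for 3 days with SB431542, a blocker of Nodal signalling through ALK receptors, and were then plated on Matrigel without retinoic acid. Sox1+ cells (35.8%) were sorted on day 7 and kept in N2 medium with 10 µM DAPT, which blocks Notch processing, and 20 ng/ml bFGF. The first group then received 1 ng/ml DKK1, a secreted Wnt antagonist, for 1 day. The second group was untreated. The third group, primary RPCs, came from dissociated retina of newborn (postnatal day 1) C57 mice and is named as cultured in the labels, with no word on whether animals were pooled. ESC-RPCs and primary RPCs thus differ in origin, strain, culture and stage together, and these cannot be told apart.

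Values are MAS5 intensities on a linear scale, and levels of different genes are not compared because probe sets differ in brightness. Over the members, the median within-group SD on the log2 scale was 0.074 in DKK1-treated, 0.068 in untreated and 0.15 in primary cells. Primary replicate 2 stood apart: over the members' log2 values it correlated at 0.950 and 0.968 with the other primary arrays, which correlated at 0.992, and at 0.987 and 0.986 against 0.995 over the 66 members above the 40th percentile on all 3. It was the array farthest from the median of the primary arrays in 39 of 69 members. Arrays within either ESC-RPC group correlated at 0.997 or more. Marker genes differed widely between ESC-RPCs and primary RPCs. The eye-field gene Rax stood at 28.2 ± 21.4 (SD, n = 3) in untreated ESC-RPCs, where the 40th percentile of the arrays was 45.6 to 47.7, and at 3939 ± 943 in primary RPCs. No retinal progenitor marker, Rax included, lay below that percentile on all 3 untreated arrays. Of 10 retinal progenitor markers measured, 6 were called lower and 3 higher in untreated ESC-RPCs (adjusted p below 0.05, limma). All 7 photoreceptor precursor markers were lower there, with a summed intensity of 1450 to 1839 against 32884 to 47467 in primary RPCs. All 8 pluripotent cell markers were higher, with a sum of 18269 to 22298 against 437 to 769, and 6 of 7 mesenchyme markers were higher, with a sum of 18932 to 23026 against 2338 to 2586. Of 6 microglia and macrophage markers 4 were lower, with a sum of 146 to 178 against 843 to 1427. Some markers lay below the 40th percentile on all 3 arrays of a group and passed the filter through other arrays. They were 5 photoreceptor and 5 microglia markers in untreated ESC-RPCs, and 4 pluripotent and 2 mesenchyme markers in primary RPCs. Because the filter kept them for being high elsewhere, their calls are given as description only. Of 7 cycling cell markers 3 were higher (Bub1 at 0.76 on the log2 scale, Mcm5 at 0.66 and Pcna at 0.30) and 2 lower (Mki67 at -0.63 and Cdk1 at -0.33), with a sum of 41434 to 44187 against 36177 to 42591. These shifts moved with every difference from primary RPCs given here, and their part in the splicing factor results was not tested. In bulk samples such as these, fewer cells of a type and less RNA per cell cannot be told apart.

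Some members with large differences between ESC-RPCs and primary RPCs are introduced first by their promoters, because the 3 Rbms genes moved together. Rbms1, Rbms2 and Rbms3 encode related proteins that bind single-stranded nucleic acid, Rbm45 encodes an RNA-binding protein of developing neurons, and Rbm43 is a less studied member that fell. Each window holds 250 bases before and 50 after a transcription start, 5′ to 3′ on the gene's strand, from RefSeq on GRCm38.p6. It is the first of 2 listed windows for all but Rbm45, which has 1. The windows are chr2:60963155-60963454 (minus strand) for Rbms1, chr10:128180248-128180547 (minus) for Rbms2, chr9:117629864-117630163 (minus) for Rbms3, chr2:76369734-76370033 (plus) for Rbm45 and chr2:51935114-51935413 (minus) for Rbm43. Capitals mark GC boxes, GGGCGG on either strand (CCGCCC).
Rbms1: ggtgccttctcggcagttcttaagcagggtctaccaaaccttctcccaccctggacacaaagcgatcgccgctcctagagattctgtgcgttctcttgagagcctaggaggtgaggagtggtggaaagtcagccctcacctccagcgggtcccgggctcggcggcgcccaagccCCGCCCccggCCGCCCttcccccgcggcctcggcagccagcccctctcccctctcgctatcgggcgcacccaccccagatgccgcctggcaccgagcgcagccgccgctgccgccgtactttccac
Rbms2: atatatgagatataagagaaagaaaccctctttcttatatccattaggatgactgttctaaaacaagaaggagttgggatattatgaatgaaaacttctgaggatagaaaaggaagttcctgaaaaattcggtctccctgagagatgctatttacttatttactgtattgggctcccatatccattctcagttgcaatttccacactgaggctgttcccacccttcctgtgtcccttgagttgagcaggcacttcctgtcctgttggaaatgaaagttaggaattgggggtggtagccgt
Rbms3: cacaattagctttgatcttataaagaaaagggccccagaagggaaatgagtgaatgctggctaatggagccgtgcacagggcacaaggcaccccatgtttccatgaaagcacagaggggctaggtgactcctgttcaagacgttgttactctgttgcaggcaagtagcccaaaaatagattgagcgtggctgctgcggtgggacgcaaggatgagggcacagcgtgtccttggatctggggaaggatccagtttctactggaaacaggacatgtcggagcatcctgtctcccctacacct
Rbm45: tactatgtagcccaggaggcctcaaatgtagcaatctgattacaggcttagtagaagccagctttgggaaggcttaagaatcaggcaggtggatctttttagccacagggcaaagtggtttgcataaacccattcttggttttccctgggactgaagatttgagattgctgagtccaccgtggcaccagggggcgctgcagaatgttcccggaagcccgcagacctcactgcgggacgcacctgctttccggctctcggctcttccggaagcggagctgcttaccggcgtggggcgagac
Rbm43: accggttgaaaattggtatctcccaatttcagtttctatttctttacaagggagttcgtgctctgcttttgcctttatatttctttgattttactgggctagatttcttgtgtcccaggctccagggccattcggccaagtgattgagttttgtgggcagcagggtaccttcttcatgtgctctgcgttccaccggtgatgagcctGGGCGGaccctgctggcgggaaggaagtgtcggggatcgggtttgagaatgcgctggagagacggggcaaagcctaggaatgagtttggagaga

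The 3 Rbms windows do not look alike. The Rbms1 window held 26 CG dinucleotides and 2 GC boxes, the Rbms2 window 2 CG dinucleotides and no GC box, and the Rbms3 window 7 and none. The Rbm45 window had 13 CG dinucleotides and no GC box, and the Rbm43 window had 11 and 1 GC box. The TCF/LEF letters CTTTGAT, the motif read by the Wnt effectors, occurred on one strand or the other in the Rbms3 and Rbm43 windows, the only 2 of the 61 members' first windows to hold it (3.28%), against 3.73% of 32851 windows of all genes. GC boxes were in 59.0% of members' windows against 35.7% of all windows, and CCAAT boxes (CCAAT or ATTGG) in 52.5% against 37.4%. TATAAA or its complement TTTATA was in 16.4% against 13.6%. The median number of CG dinucleotides was 25 in members' windows and 7 in all windows. Members gave only their first window and had passed the filter on signal. All windows hold more than 1 for some genes and were not limited to measured genes, so the shares are not like for like. A match describes letters in a window, not a bound site, and 8 members had no window in the table.

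The first comparison asks how the stem cell-derived progenitors differ from those of the eye. Between untreated ESC-RPCs and primary RPCs, 35 of the 69 members changed at an adjusted p below 0.05 (limma moderated test, Benjamini-Hochberg over all genes): 13 were higher and 22 lower in ESC-RPCs. That is 50.7% of members, where 53.0% of all genes tested were called, so the share is that of the background. By direction, 18.8% of members were called higher and 31.9% lower, where 26.1% of all genes were called higher and 26.9% lower; whether the members' split differs was not tested. These counts hold Rbm47, which passed the filter only where it is high. Without Rbm47, 34 of 68 were called, 12 higher and 22 lower. The counts also hold Rbmxl2, called higher, and Rbm11, called lower. Both passed the filter only through the groups where they are high. Without primary replicate 2 the count was 38, 14 higher and 24 lower. The median log2 difference of members was -0.09 (all genes -0.01) and their median absolute difference 0.29 (all genes 0.44). A difference of at least 2-fold was called in 8 members, all of them Rbm genes, where 20.8% of all genes reached it. The 8 include Rbm47 and Rbmxl2. By family, 4 of 10 SR, 6 of 19 hnRNP and 25 of 40 Rbm genes were called. The Rbm count holds Rbm47, Rbmxl2 and Rbm11. Whether the families differ was not tested. Many hnRNP and SR probe sets are bright, and among bright genes (geometric mean intensity of at least 4000) 8 of 29 members were called against 58.2% of all such genes.

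**Figure D1:**
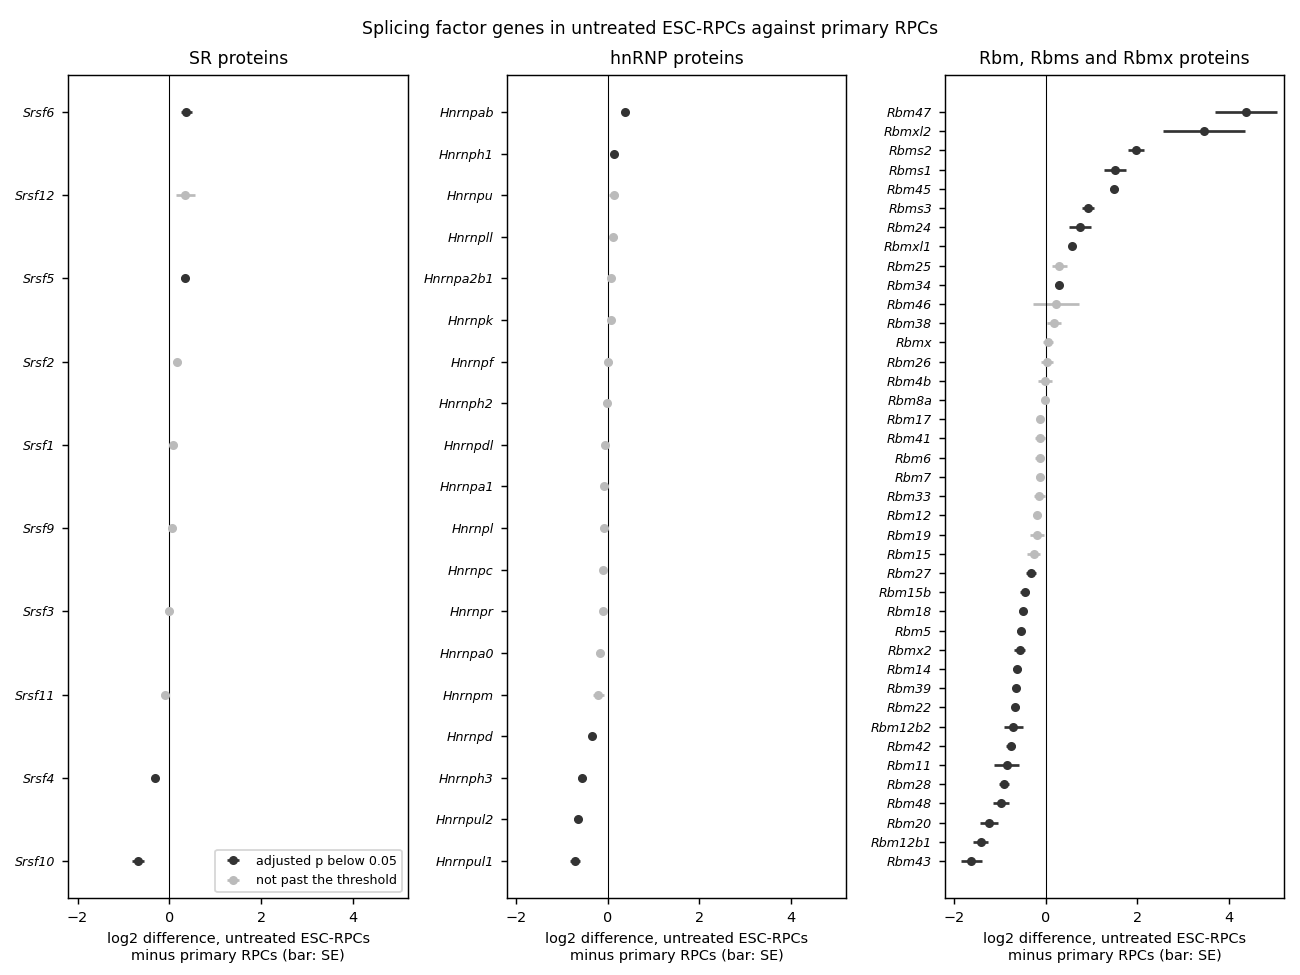
Log2 difference between untreated ESC-RPCs and primary RPCs for each of the 69 members, in a panel per family; points are differences of group means over 3 arrays each, bars are standard errors, dark points passed adjusted p below 0.05. SR genes lie between -0.68 and 0.37 and hnRNP genes between -0.70 and 0.38, while Rbm genes run from -1.62 to 4.36. The value of 4.36 is Rbm47, which lay below the 40th percentile on the primary arrays.

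Among the SR proteins, Srsf5 and Srsf6 were higher in ESC-RPCs and Srsf10 and Srsf4 lower, all by less than 2-fold. Srsf10, which represses splicing when it is dephosphorylated after heat shock or in mitosis, read 2776, 2786 and 3241 in untreated ESC-RPCs and 4828, 5335 and 4003 in primary RPCs. The groups did not overlap, and the log2 difference was -0.68 ± 0.13 (SE, adjusted p = 0.0011, limma). Averaged over all its probe sets the Srsf10 difference was -0.15 and not called (adjusted p = 0.43, limma). Srsf4, the largest classical SR protein, stood at 3395 ± 125 and 4232 ± 73.2 (SD, n = 3), a log2 difference of -0.32. Srsf5 was at 10918 ± 144 and 8704 ± 878, a rise of 0.33 that shrank to 0.21 under quantile normalization. Srsf6, a regulator of tau exon choice, was at 7687 ± 171 in untreated ESC-RPCs and varied widely in primary RPCs, at 6064, 4763 and 7257. Its log2 difference was 0.37 ± 0.12 (adjusted p = 0.024, limma). That call was lost without any one of the untreated arrays (adjusted p = 0.054 to 0.066, limma) and fell to 0.21 without primary replicate 2, the lowest array.

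Srsf1, Srsf2 and Srsf3 did not pass the test. Srsf1 (ASF/SF2), the founding member, read 15954, 16607 and 16841 in untreated ESC-RPCs and 17004, 13568 and 16123 in primary RPCs, so the ranges overlap. Its log2 difference was 0.09 ± 0.08. Srsf2 (SC35), a marker of nuclear speckles, differed by 0.17 ± 0.08, and Srsf3, the smallest SR protein, by 0.00 ± 0.09. Srsf9, Srsf11 and Srsf12 were not called either.

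Of the hnRNP genes 2 were called higher, 4 lower and 13 not at all (31.6% called against 53.0% of all genes), and their median absolute log2 difference was 0.12 against 0.44 for all genes. The 4 falls include both members of the Hnrnpu-like pair. Hnrnpul1, which acts in the response to DNA damage, read 2954, 3253 and 3447 in untreated ESC-RPCs and 4555, 5331 and 5880 in primary RPCs. Hnrnpul2 read 2429, 2643 and 2545 against 3890, 4058 and 4011. Neither pair of groups overlapped, and the log2 differences were -0.70 ± 0.11 and -0.65 ± 0.07 (adjusted p = 0.00039 and 2.8e-05, limma). Hnrnpu itself, a scaffold protein of the nuclear matrix, was not called, at 12371 ± 261 and 11365 ± 1788 (SD, n = 3). Hnrnph3 fell by 0.56 ± 0.09 on the log2 scale. Hnrnpd (AUF1), which directs decay of AU-rich mRNAs, fell by 0.34 ± 0.07.

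Hnrnpab was the clearest rise among hnRNP genes. It read 19413, 21190 and 19420 in untreated ESC-RPCs and 15252, 15610 and 15306 in primary RPCs. The groups are apart, with a log2 difference of 0.38 ± 0.05 (adjusted p = 8.35e-05, limma), which was 0.11 after quantile normalization. Hnrnph1 was at the threshold, with a rise of 0.15 (adjusted p = 0.049, limma) that turned to -0.037 after quantile normalization. The core proteins of hnRNP particles did not pass the test: Hnrnpa1 differed by -0.07, Hnrnpa2b1 by 0.08 and Hnrnpc by -0.09. Hnrnpk, a poly(C)-binding protein, read 16824, 17517 and 18192 in untreated ESC-RPCs and 16037, 17142 and 16889 in primary RPCs, an overlap. Its difference of 0.07 became -0.19, with a call, under quantile normalization (adjusted p = 0.0055, limma). Hnrnpll, which switches CD45 exons in lymphocytes, differed by 0.12 ± 0.09.

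The largest differences were in the Rbm genes, of which 9 rose and 16 fell. The rises hold Rbm47 and Rbmxl2 and the falls Rbm11, kept by the filter only where they are high. The 3 Rbms genes were each higher in ESC-RPCs. Rbms2 read 647, 646 and 652 in untreated ESC-RPCs and 206, 120 and 184 in primary RPCs, 3.91-fold higher. Rbms1 read 2070, 2098 and 2365 against 670, 1192 and 559, 2.84-fold higher. Rbms3 read 1118, 1289 and 1147 against 542, 779 and 575, 1.9-fold higher. In each of the 3 the lowest ESC-RPC array exceeded the highest primary array. The log2 differences were 1.97 ± 0.18, 1.51 ± 0.23 and 0.92 ± 0.14 (adjusted p = 9.8e-06, 0.00033 and 0.000245, limma). DKK1-treated cells gave 1.95, 1.41 and 0.79 against the same primary arrays. Both Rbms2 and all 4 Rbms3 probe sets were called higher, while the second Rbms1 probe set gave 0.44 and was not called, and the mean over both was 0.98.

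Rbm45 had the smallest adjusted p of any member. It read 2216, 2345 and 2413 in untreated ESC-RPCs and 827, 876 and 776 in primary RPCs, 2.81-fold higher, with a log2 difference of 1.49 ± 0.09 (adjusted p = 3.1e-07, limma). The primary arrays were tightly grouped and far below all 6 ESC-RPC arrays. Rbm47, a cofactor of the APOBEC1 mRNA editing enzyme with known roles in epithelia, read 157, 142 and 147 in untreated ESC-RPCs and 19, 1.85 and 10.7 in primary RPCs. All 3 primary values lie below the 40th percentile of their arrays, so only a bound can be given. Measured against those percentiles, Rbm47 was at least 3.14-fold higher in untreated and at least 3.62-fold higher in DKK1-treated ESC-RPCs. No test is given for it, because it passed the filter only through the groups where it is high. Its second probe set, also below the 40th percentile on all 3 primary arrays, differed by 2.38 on the log2 scale.

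Rbmxl2 (hnRNP G-T), known from the testis, read 111, 109 and 113 in untreated ESC-RPCs and 2.28, 59.1 and 7.76 in primary RPCs. Only 1 primary array was above its 40th percentile. The log2 difference of 3.45 ± 0.89 ranged from 2.38 without primary replicate 1 to 4.72 without primary replicate 2. No test is given for Rbmxl2, because it passed the filter only through the groups where it is high. Rbm24, a muscle splicing regulator, was at 501 ± 56.3 and 313 ± 126 (SD, n = 3). The Rbm24 groups overlap, with a primary array at 451 above an untreated one at 437. Its call (0.75 ± 0.25, adjusted p = 0.026, limma) was lost without primary replicate 1 or 2 or untreated replicate 2 or 3, with adjusted p values of 0.068 to 0.075. Rbmxl1, a retrogene copy of Rbmx, rose by 0.57, and Rbm34, a nucleolar protein, by 0.29. The near-identical sequence of Rbmx and Rbmxl1 makes the assignment of either signal uncertain.

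**Figure D2:**
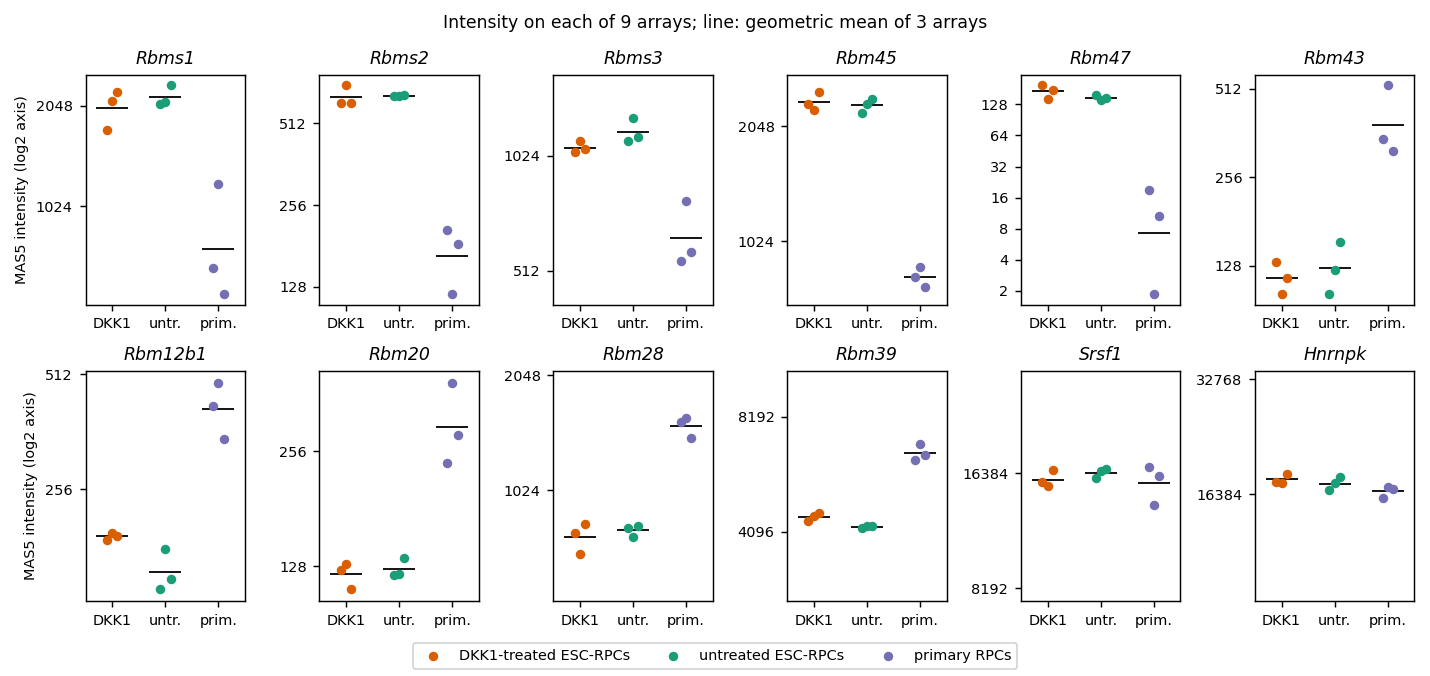
MAS5 intensity on each of the 9 arrays for 12 members, on a log2 axis that is scaled for each gene; points are arrays coloured by group, lines are geometric means of 3 arrays. For Rbms1, Rbms2, Rbms3, Rbm45 and Rbm47 both ESC-RPC groups lie above primary RPCs, for Rbm43, Rbm12b1, Rbm20, Rbm28 and Rbm39 below them, and for Srsf1 and Hnrnpk the 3 groups lie close together.

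The strongest fall was Rbm43, with 103, 124 and 155 in untreated ESC-RPCs and 346, 527 and 315 in primary RPCs, 3.07-fold lower (log2 difference -1.62 ± 0.23, adjusted p = 0.00019, limma). No ESC-RPC array reached the lowest primary one. Rbm12b1 read 141, 179 and 149 against 423, 485 and 346, 2.67-fold lower. Its near-duplicate Rbm12b2, with which it may share signal, read 118, 164 and 183 against 229, 322 and 208, a log2 difference of -0.70. The Rbm12b2 call was lost without untreated replicate 1 (-0.52, adjusted p = 0.067, limma), and as the mean of its probe sets the difference was -0.37. Rbm20, the titin splicing factor of heart muscle, read 121, 122 and 135 against 238, 386 and 283, 2.35-fold lower and without overlap.

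Rbm proteins that act in or beside the spliceosome include Rbm22, Rbm39, Rbm48 and Rbm5, which were called lower, and Rbm17, Rbm25, Rbm41 and Rbm8a, which were not called. Rbm22, which lies near the active site of the spliceosome, was at 2002 ± 113 in untreated ESC-RPCs and 3159 ± 133 in primary RPCs (SD, n = 3), a log2 difference of -0.66 ± 0.08 (adjusted p = 5.6e-05, limma). Rbm39, a relative of the 3-prime splice-site factor U2AF, was at 4221 ± 29.1 and 6593 ± 331. Rbm48, a protein of the minor spliceosome, was at 381 ± 47.5 and 760 ± 193. Rbm5, which governs exon choice in the Fas death receptor, fell by 0.55 on the log2 scale, but by 0.20 and without a call as the mean of its probe sets (adjusted p = 0.13, limma). Rbm42 fell by 0.76 and Rbmx2 by 0.57. Rbm17 (SPF45) differed by -0.11, Rbm41 by -0.12, Rbm25 by 0.29 and Rbm8a (Y14), a core part of the exon junction complex, by -0.02 ± 0.06.

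Of the Rbm genes with other roles, the nucleolar Rbm28 read 816, 771 and 827 in untreated ESC-RPCs and 1541, 1587 and 1407 in primary RPCs, 1.88-fold lower. The groups are far apart on that probe set, yet the mean of the 2 Rbm28 probe sets differed by only -0.27. Rbm14 of the paraspeckle fell by 0.63, Rbm15b of the m6A writer complex by 0.46, Rbm18 by 0.50 and Rbm27 by 0.31. The second Rbm15b probe set gave 0.16 and was not called, and the Rbm15b call was lost as the mean of its probe sets. The Rbm27 call was lost without any one of 6 arrays. Rbm11, a splicing regulator of brain and testis, was at 45.1 ± 4.48 and 81.2 ± 5.93 (SD, n = 3), where the ESC-RPC level is near the 40th percentile. No test is given for Rbm11, because it passed the filter only through the primary arrays, where it is high. Its call in the counts was lost without untreated replicate 1 or 2 or primary replicate 3. Rbm15, Rbm19, Rbm7, Rbm26 and Rbm38, the last a p53 target, did not pass the test.

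Other splicing genes were taken from lists chosen by function, and their counts are set against the 53.0% of all genes called (26.1% higher and 26.9% lower). Of 25 neural splicing regulators 10 rose and 6 fell (64.0% called). Nova2 (1.68), Elavl4 (1.65), Elavl2 (1.63) and Nova1 (1.29), neuronal RNA-binding proteins, were higher in ESC-RPCs on the log2 scale. Postmitotic neuron markers were called in 6 of 9 (4 higher and 2 lower), with a sum of 33667 to 40026 in untreated ESC-RPCs against 27285 to 30636 in primary RPCs. Elavl3, Elavl4 and Rbfox3 stand in both of these lists, so the counts share genes. Astrocyte and Mueller glia markers were called in all 7 (5 higher and 2 lower), with a sum of 25269 to 27262 against 9430 to 11684. Of these 7 markers, 2 lay below the 40th percentile on all 3 primary arrays. The part of such cells was not tested. Srrm4, the regulator of neuronal microexons, was lower at 467 ± 28.1 against 1491 ± 461 (SD, n = 3), as were Khdrbs3 (-1.29) and Mbnl2 (-0.95). Ptbp2 (-0.01) and Rbfox2 (-0.03) were not called, and Ptbp1 was just past the threshold at -0.27 (adjusted p = 0.047, limma). Of 17 hnRNP proteins under other names 1 rose and 6 fell (41.2% called), the falls including Pcbp3 (-1.97), Taf15 (-1.28) and the cold-inducible Cirbp (-0.74). Of 26 SR-related proteins and kinases 3 rose and 5 fell (30.8% called), with Luc7l at -0.93 and the SR kinase Srpk1 at 0.43.

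Among 13 epithelial and stem cell regulators 7 rose and 4 fell, or 84.6% called against 53.0% of all genes. The epithelial exon regulator Esrp1 was at 197 ± 16.5 (SD, n = 3) in untreated ESC-RPCs and below the 40th percentile on the primary arrays, at least 4.15-fold higher. Lin28a, which blocks let-7 maturation in stem cells, was at least 16.0-fold higher. Both are counted among the 7 rises, though they passed the filter only through the ESC-RPC arrays. The 4 falls were Mbnl3, Pspc1, Son and Sfpq. Because of the filter, the direction of Esrp1 and Lin28a was set in advance and is description only. Any part of pluripotent cells in the differences of this list was not tested. Of 23 measured U1 and U2 snRNP proteins 3 rose and 6 fell (39.1% called), with Snrnp70 at 0.76. Of 14 exon junction and nonsense-mediated decay genes 8 were measured, 5 of which fell (62.5%; Casc3 -0.53) and none rose.

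**Figure D3:**
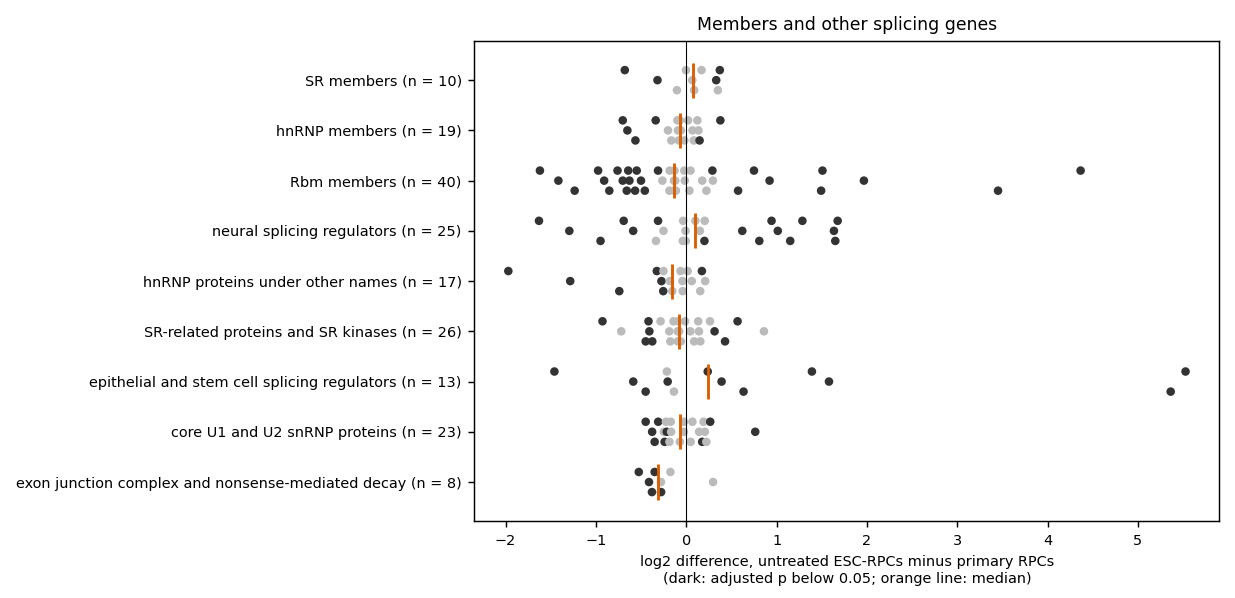
Log2 difference between untreated ESC-RPCs and primary RPCs for the members by family and for 6 lists of other splicing genes; each point is a gene, dark points passed adjusted p below 0.05, orange lines are medians. The medians of the 3 families lie at 0.08 (SR), -0.07 (hnRNP) and -0.13 (Rbm). Genes beyond 5 on the log2 scale are Esrp1 and Lin28a, for which only bounds can be given.

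Several members have more than 1 probe set, and these did not always move together. The 69 members had 185 kept probe sets, of which 34 rose and 43 fell in a fit over all probe sets, against 24.2% and 24.7% of all 24773 (48.8% called in all). Of 44 members with several probe sets, 5 had all of them called in the same direction (Rbms2, Rbms3, Rbm42, Rbm47 and Srsf6). Both Rbm47 probe sets passed the filter only through the ESC-RPC arrays, where they are high. Their shared direction is therefore description only, and they are also among the 34 rises. Another 17 members had some called in the same direction and 16 had none called. The other 6 had calls in both directions: Hnrnpab, Hnrnpdl, Hnrnpr, Rbm26, Rbm39 and Srsf1. That is 13.6%, where 3.83% of the 6532 genes with several probe sets had calls in both directions. Members differ from other genes in how many probe sets they carry, and this was not adjusted for.

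Rbm39 had 12 probe sets, with 8 called lower, 1 higher and 3 not called. The brightest probe set gave -0.64. The widest fall, -3.16 ± 0.33 (adjusted p = 1.9e-05, limma), came from a probe set that read 100, 44.1 and 73.1 in untreated ESC-RPCs and 518, 825 and 534 in primary RPCs. The single rise, 0.89, came from one at 188 ± 64.1 and 98.2 ± 19.4 (SD, n = 3). Rbmx (hnRNP G), a regulator of exon choice, gave 0.05 on its brightest probe set, which read 2276, 2162 and 1953 against 2171, 1773 and 2263. Another Rbmx probe set read 613, 635 and 769 against 2534, 1331 and 2359, a fall of 1.58 on the log2 scale (adjusted p = 0.00015, limma). Their groups overlap on the first and are apart on the second. As the mean of its 3 probe sets Rbmx was -0.45 and called lower (adjusted p = 0.030, limma). Which transcripts each probe set binds was not examined here, so the reason for such differences was not tested.

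**Figure D4:**
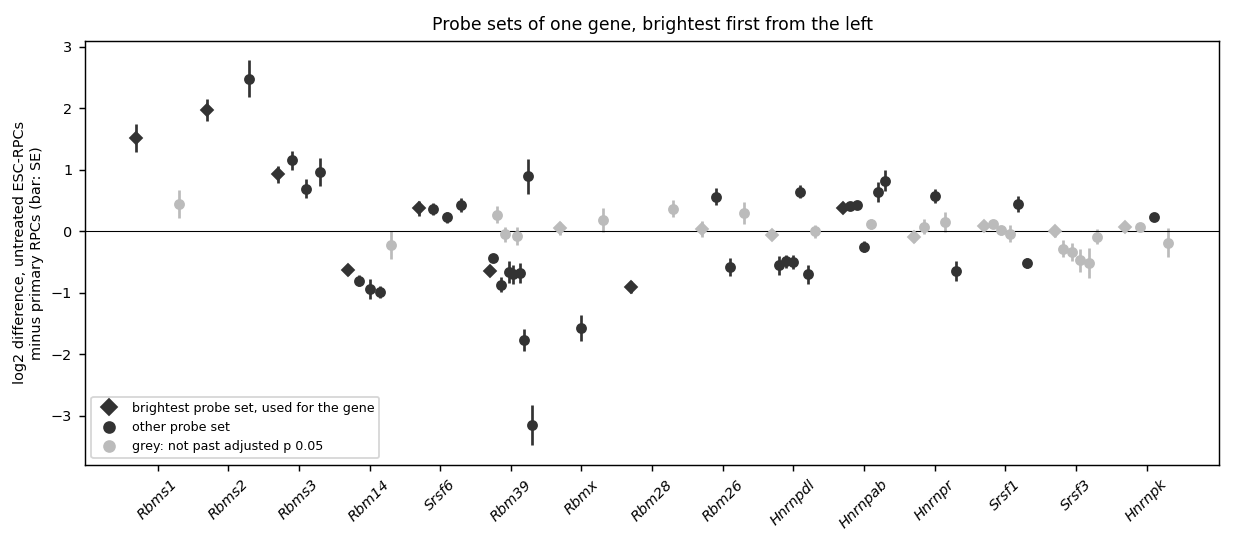
Log2 difference between untreated ESC-RPCs and primary RPCs for each kept probe set of 15 members, from the brightest at the left; diamonds are the probe sets used for the gene, bars are standard errors and grey marks did not pass adjusted p below 0.05. Probe sets of Rbms2, Rbms3 and Srsf6 lie on one side of 0, and those of Rbm39 spread from -3.16 to 0.89.

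DKK1-treated ESC-RPCs were set against the same primary arrays, so this comparison is not independent of the one above. It called 37 members, 13 higher and 24 lower, which is 53.6% against 52.8% of all genes (26.0% higher and 26.8% lower). Without primary replicate 2 it called 41, 13 higher and 28 lower, and without Rbm47 36 of 68. At least 2-fold differences were again called in 8 Rbm genes, against 21.2% of all genes. By family 4 SR, 6 hnRNP and 27 Rbm genes were called. The 8 include Rbm47 and Rbmxl2, and the 27 also Rbm11. Rbm45 gave 1.52 here and 1.49 in untreated cells, Rbm43 -1.73 and -1.62, Rbm12b1 -1.10 and -1.42, and Rbm22 -0.86 and -0.66. Rbm12b2, called with untreated cells at -0.70, gave -0.35 here and was not called (adjusted p = 0.18, limma).

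The effect of 1 day of DKK1 on splicing factor genes was small. None of the 69 members was called between DKK1-treated and untreated ESC-RPCs, and no gene of all those tested was (0%). At an unadjusted p below 0.05, 1 member (Rbm22) and 2.31% of all genes passed in limma, and the smallest adjusted p of a member was 0.9997 (limma). The differences ran from -0.20 in Rbm22 to 0.41 in Rbmxl2 on the log2 scale, with a median of -0.04 (all genes -0.00) and 40 members lower and 29 higher. In 17 members the arrays of the groups did not overlap, 5 higher and 12 lower, against 12.0% of all genes. SR genes were lower in 8 of 10 and hnRNP genes in 14 of 19, with medians of -0.06 and -0.06. Rbm genes were lower in 18 of 40, with a median of 0.01, and all genes in 6732 of 13320. Whether these splits differ was not tested. This fit took its spread from all 3 groups, including the primary arrays, which the comparison does not use. The median within-group SD of members on the log2 scale was 0.15 in primary, 0.074 in DKK1-treated and 0.068 in untreated cells. With 3 arrays a group and this fit, a standard error of 0.06 for Hnrnpa1 or 0.11 for Hnrnpul1 leaves small shifts undetectable.

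Same-numbered DKK1-treated and untreated arrays deviated together, so the comparison was also made with the replicate number as a block on those 6 arrays. That fit called 65 genes (0.488%) and no member, with 20 members and 15.0% of all genes at an unadjusted p below 0.05. The smallest adjusted p among members was 0.12 (limma), for Hnrnpu. On its brightest probe set Hnrnpu was lower in all 3 pairs: 10994 against 12557, 10979 against 12072 and 11998 against 12483. Another Hnrnpu probe set was higher in the first pair, at 10128 against 9869, and lower in the other pairs. Its difference was -0.008 in the fit over all probe sets. In 40 members all 3 pairs shared a sign, 14 higher and 26 lower, against 37.4% of all genes. The median standard error of members was 0.045 in the block fit, against 0.096 in the fit of all 3 groups. In the block fit it was 0.034 for Hnrnpa1 and 0.075 for Hnrnpul1. The block fit also leaves out the primary arrays, and which of these changes lowered the standard errors was not tested.

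Rbm22 read 1790, 1775 and 1666 in DKK1-treated and 1979, 1903 and 2126 in untreated ESC-RPCs. The groups do not overlap, and the log2 difference was -0.20 ± 0.08 (adjusted p = 0.14 with the block, limma). Hnrnpul1 read 4283, 3504 and 3671 against 2954, 3253 and 3447, all 3 DKK1-treated arrays above the untreated ones (0.24 ± 0.11). Rbm12b1 read 189, 197 and 193 against 141, 179 and 149, and Rbm12b2 190, 190 and 205 against 118, 164 and 183. On the brightest probe sets these were the largest differences without overlap among Rbm genes above the 40th percentile on all 9 arrays. They were 0.31 ± 0.16 and 0.35 ± 0.21, and neither passed the test. The second Rbm12b2 probe set went the other way, with 78.5, 74.2 and 72.2 against 89.2, 130 and 97.0. Its groups did not overlap either, and its difference of -0.47 ± 0.27 was not called. Rbmxl2, above the 40th percentile on every ESC-RPC array, differed by 0.41 ± 0.89 without overlap. With the block its standard error was 0.17, and it was not called either. Rbm17 differed by -0.10 and Hnrnpc by -0.09. Srsf10 was higher in all 3 pairs at 0.15 ± 0.13. Of the 3 Rbms genes, Rbms2 differed by -0.01, Rbms1 by -0.10 and Rbms3 by -0.13, each smaller than its difference from primary RPCs.

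**Figure D5:**
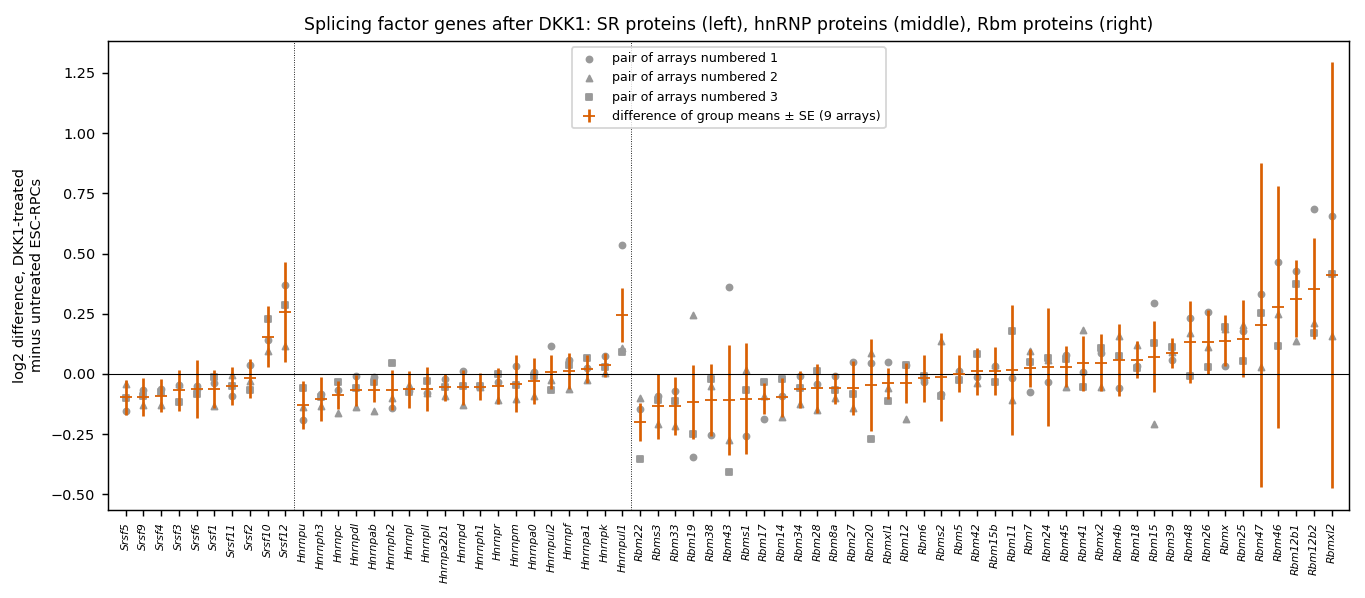
Log2 difference between DKK1-treated and untreated ESC-RPCs for the 69 members, ordered within each family; grey marks are the 3 pairs of same-numbered arrays, orange marks are differences of group means with their standard errors. Members lie between -0.20 and 0.41 and none was called. The widest bars belong to Rbm47 and Rbmxl2, which are dim on the primary arrays that share the fit.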

How the data were processed

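Expression of 9 mouse samples was read from the table of values deposited with the series. Per the submitters' processing notes the authors made these intensity values with MAS5; version and settings are not given in the sources used here, nor is a genome build. In the deposited table each array has the same trimmed mean (2% off either end), so the authors had scaled the arrays to one level. The arrays have no read depth, and their number limits the precision.

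The 64 control probe sets were set aside. Log2 was taken with no pseudocount and no further normalization. Of 45101 probe sets, 29052 lay above their array's 40th percentile on at least 3 arrays, and 24773 of these name 1 gene; a gene was represented by its brightest probe set. Probe sets were named through a platform annotation, and all members' symbols matched current RefSeq symbols by gene ID. All 9 arrays entered a single limma fit (version 3.58.1, R 4.3.3) that gave each group its own mean and let the empirical Bayes prior follow intensity; it was first tested on simulated data. P-values are two-sided and adjusted over 13320 genes by the Benjamini-Hochberg method, with calls at an adjusted p below 0.05. P-values measure the spread between these samples. A gene below the 40th percentile on all arrays of a group was given a bound, the other group's mean over the higher of that percentile and its own signal.

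Members and lists were chosen with earlier results of these data known. The text names, per family, up to 6 called rises and falls of the greatest size, the 6 members with the smallest p after DKK1, a fixed set of well-known members, and up to 4 called genes in each direction per other list; further members were named after their values were seen. Both ESC-RPC groups carry replicate numbers 1 to 3. The deviations of same-numbered arrays from their group means correlated at 0.12, 0.19 and 0.32 over genes, and those of different numbers at -0.23 to 0.07. Deviations within a group cancel, so the different-number values depend on the same-number ones and are not separate evidence. The numbers were taken to pair those groups from these values alone, since the labels name no shared batch. The block fit uses the same values. No such pairing was seen with primary RPCs. Alternatives changed the normalization, the filter, the pseudocount, the choice of probe set, the empirical Bayes trend, the arrays in the fit, the block and each single array.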

Additional observations from a re-analysis of the deposited data

How the results depend on the processing

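The number of members called stayed within 1.5 times in all 19 alternatives to each comparison: 30 to 38 for untreated ESC-RPCs against primary RPCs (35 as reported), 28 to 41 for DKK1-treated against primary RPCs (37) and 0 for DKK1. Of the 35 calls, 25 held under every alternative and 29 without any single array; of the 37, 23 and 27. Against primary RPCs, with untreated ESC-RPCs, quantile normalization turned Hnrnph1 to -0.037 and Hnrnpk to -0.19, and averaging a gene's probe sets turned Rbmx to -0.45 and the branch-point protein gene Sf1 to -0.061. With DKK1-treated cells averaging turned Rbmx to -0.47 and Hnrnpc to 0.025. The cause was not tested. With the replicate number as a block, 31 members were called in the 6 arrays of untreated and primary cells and 35 in all 9 arrays; for DKK1-treated against primary RPCs the block gave 29 and 40. The block changed no member's call between DKK1-treated and untreated cells. Rbm47, Rbmxl2, Rbm46 and Rbm11, each dim on some arrays, have wide standard errors. With a pseudocount of 32 Rbm47 differed by 2.11 and Rbmxl2 by 1.52 on the log2(value + 32) scale. Protein sequence features of the members were not computed.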
